A study of Mus musculus with 34 samples.

Results

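In the table of acetylated regions of mouse bone marrow-derived macrophages (BMDM), 9392 of 95038 regions carried the name of the untreated peak list alone. These regions were selected on that listing, which came from the same 4 libraries whose tags are given below, so every difference between DLL4-treated and untreated BMDM in them is a description and supports nothing by itself. Of the other regions, 72299 were listed in both conditions and 13347 only with DLL4. Each region is 2000 bp long and was given as raw tags of a ChIP-seq library for histone H3 acetylated at lysine 27 (H3K27ac). The 2 DLL4 libraries came from BMDM of C57BL/6J mice, cultured for 4 days and exposed to DLL4 for 24 h, and the 2 untreated libraries from BMDM of the same strain and culture time. A second table held 2 libraries each of Kupffer cells (KC), of repopulating liver macrophages (RLM) and of blood Ly6C-high monocytes. The KC were untreated, and the sample labels name C57BL/6J for them while the series design names Clec4f-Cre/DTR mice. The RLM came from Clec4f-cre/Rosa26iDTR mice 24 h after diphtheria toxin, in which Clec4f-cre, active in KC, drives the toxin receptor. The monocytes came from untreated C57BL/6J mice. Peak lists, 2 per factor, came from RBPJ and SMAD4 ChIP-seq of C57BL/6J BMDM at 4 days and of nuclei of Clec4f-cre KC, from LXR ChIP-seq of Clec4f-cre KC, and from LXR ChIP-seq of BMDM cultured for 7 days and given GW3965, an LXR agonist, for 18 h. Whether the libraries within a group are separate animals or cultures is not labelled, so every p-value given here may rest on technical spread alone. In such bulk libraries, fewer cells carrying a mark and less of the mark per cell cannot be told apart.

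DLL4 is a membrane ligand of Notch receptors. Ligand binding leads to cleavage of the receptor, and its intracellular domain joins the DNA-binding protein RBPJ, which without Notch can recruit corepressors. SMAD4 is the common partner of the SMADs that carry TGF-beta and BMP signals, and LXR is a nuclear receptor for oxysterols with its own targets in lipid handling. H3K27ac marks active promoters and enhancers, and in macrophages it shifts with the signals of the tissue. The liver sinusoid presents DLL4, TGF-beta family ligands and LXR ligands to monocytes that enter an emptied KC niche, and the study asked how such signals shape the KC enhancer set. Regions listed only in untreated BMDM carry the name of the untreated peak list and not that of the DLL4 list. The listing alone does not mean a lost site: 4285 of the 9392 (45.6%) overlapped a region listed in both conditions or only with DLL4.

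Most of these regions lie away from gene starts, so sequence is shown for the few that hold the start of the gene they are annotated to. Promoter windows of 300 bases, 250 before to 50 after a gene's start, were taken from RefSeq on GRCm38.p6. Of them, 1305 windows of 1142 genes lay wholly inside 1035 of the 9392 regions. The first 5 below are all those whose region was called lower with DLL4 (the call is defined below) and whose symbol is the region's annotated gene, with predicted genes left out. The last 3 are those with the highest mean level among the 7 genes whose region, although listed only in untreated BMDM, was called higher. Sequences run 5′ to 3′ on the gene's strand, and capitals mark matches to 6 motifs, searched on both strands. These were TGANTCA (AP-1), GAGGAAGT (ETS or PU.1), TGGGAA (RBPJ), CAGACA (SMAD), TTGCNNAA (C/EBP) and AGGTCA (nuclear receptors).
Bcl2: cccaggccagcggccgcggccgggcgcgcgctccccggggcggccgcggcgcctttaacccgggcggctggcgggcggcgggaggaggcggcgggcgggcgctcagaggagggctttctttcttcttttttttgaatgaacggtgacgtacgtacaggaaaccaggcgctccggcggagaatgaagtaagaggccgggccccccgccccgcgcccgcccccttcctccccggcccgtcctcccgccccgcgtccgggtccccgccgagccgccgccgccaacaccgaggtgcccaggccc
Lcmt1: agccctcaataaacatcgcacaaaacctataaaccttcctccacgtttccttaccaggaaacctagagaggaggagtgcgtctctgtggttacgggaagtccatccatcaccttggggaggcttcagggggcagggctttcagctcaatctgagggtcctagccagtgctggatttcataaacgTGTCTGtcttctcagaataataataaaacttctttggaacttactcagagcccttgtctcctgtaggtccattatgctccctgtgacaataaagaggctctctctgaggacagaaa
Rnase2b: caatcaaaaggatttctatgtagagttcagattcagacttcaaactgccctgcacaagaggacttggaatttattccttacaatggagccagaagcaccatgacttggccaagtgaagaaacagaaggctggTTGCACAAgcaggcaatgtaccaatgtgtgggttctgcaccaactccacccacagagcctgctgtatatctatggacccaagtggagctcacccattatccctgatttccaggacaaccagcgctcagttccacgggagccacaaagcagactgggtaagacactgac
Rnf183: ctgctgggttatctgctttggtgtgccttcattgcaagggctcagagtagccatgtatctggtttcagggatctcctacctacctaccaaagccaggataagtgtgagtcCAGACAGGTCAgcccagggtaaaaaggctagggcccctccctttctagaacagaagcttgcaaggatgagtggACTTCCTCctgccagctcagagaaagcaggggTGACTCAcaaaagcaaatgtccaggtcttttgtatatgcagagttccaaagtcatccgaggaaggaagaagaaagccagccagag
Slco4a1: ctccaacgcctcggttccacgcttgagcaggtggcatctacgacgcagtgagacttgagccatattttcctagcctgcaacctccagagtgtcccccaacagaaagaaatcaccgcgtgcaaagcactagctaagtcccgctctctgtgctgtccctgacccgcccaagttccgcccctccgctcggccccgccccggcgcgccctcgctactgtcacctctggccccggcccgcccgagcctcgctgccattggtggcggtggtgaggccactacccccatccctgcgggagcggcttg
Cxcr4: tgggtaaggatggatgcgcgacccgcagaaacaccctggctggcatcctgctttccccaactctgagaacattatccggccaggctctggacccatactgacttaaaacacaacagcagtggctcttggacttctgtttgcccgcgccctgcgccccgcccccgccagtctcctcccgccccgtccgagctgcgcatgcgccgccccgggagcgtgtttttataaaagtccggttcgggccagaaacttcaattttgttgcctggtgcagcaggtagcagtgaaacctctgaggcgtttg
Cyp27a1: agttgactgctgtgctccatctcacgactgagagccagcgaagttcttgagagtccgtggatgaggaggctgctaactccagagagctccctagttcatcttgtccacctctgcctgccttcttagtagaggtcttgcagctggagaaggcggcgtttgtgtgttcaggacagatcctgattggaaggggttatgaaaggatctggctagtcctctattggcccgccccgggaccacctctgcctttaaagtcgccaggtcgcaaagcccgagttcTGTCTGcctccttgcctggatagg
Hfe: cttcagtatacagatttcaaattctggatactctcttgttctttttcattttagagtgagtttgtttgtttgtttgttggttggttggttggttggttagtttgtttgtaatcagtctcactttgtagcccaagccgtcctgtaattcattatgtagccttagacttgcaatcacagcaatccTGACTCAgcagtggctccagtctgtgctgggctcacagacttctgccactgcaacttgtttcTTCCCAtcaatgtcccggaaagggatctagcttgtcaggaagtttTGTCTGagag

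The windows lie at chr1:106714241-106714540 on the minus strand (Bcl2, an inhibitor of apoptosis), chr7:123407567-123407866 on the plus strand (Lcmt1, a methyltransferase of protein phosphatase 2A), chr14:51162010-51162309 on the plus strand (Rnase2b, a ribonuclease gene), chr4:62434591-62434890 on the minus strand (Rnf183, a RING-type ubiquitin ligase) and chr2:180455995-180456294 on the plus strand (Slco4a1, an organic anion transporter). Those whose region was called higher lie at chr1:128592250-128592549 on the minus strand (Cxcr4, the receptor of the chemokine CXCL12), chr1:74713285-74713584 on the plus strand (Cyp27a1, the sterol 27-hydroxylase) and chr13:23710805-23711104 on the minus strand (Hfe, a regulator of iron uptake). The window of Bcl2, that of Slco4a1 and that of Cxcr4 held none of the 6 motifs. That of Rnf183 held 4, the AP-1, ETS, SMAD and nuclear receptor letters, of which the last 2 share 1 base, and that of Hfe held 3, including the only RBPJ match of the 8 windows. The strongest RBPJ peak of BMDM lay 35 and 26 bp upstream of the Rnf183 start in the 2 lists, and 53 and 16 bp upstream of the Slco4a1 start. It lay 112 and 117 bp upstream of the Bcl2 start, while the regions that hold the Lcmt1 and Rnase2b windows had no RBPJ peak. An overlapping region of Lcmt1 with the same listing, at chr7:123404786-123406786, had an RBPJ peak in both lists. In the regions called higher, the strongest RBPJ peak lay 2 bp downstream and 42 bp upstream of the Cxcr4 start. At Hfe it lay 29 bp upstream and 8 bp downstream, and at Cyp27a1 374 and 401 bp upstream, outside the printed window. Over all 1305 windows inside the regions, TGGGAA was present in 23.0%, against 22.9% of the windows inside regions listed in both conditions and 25.6% of all 32851 windows of the reference table. CAGACA was present in 17.9%, 15.7% and 21.0% of the same 3 sets, and TGANTCA in 5.36%, 5.22% and 7.81%. The letters of GAGGAAGT were in 3.45%, 3.67% and 3.20%, those of TTGCNNAA in 9.50%, 8.50% and 10.8%, and those of AGGTCA in 13.1%, 11.8% and 16.3%.

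The 4 BMDM libraries held 22.0 and 21.6 M region tags with DLL4 and 20.2 and 27.2 M untreated. The regions listed only in untreated BMDM took 6.49% and 6.40% of the tags with DLL4 and 7.10% and 6.98% untreated. Levels are given as CPM, tags per M tags of the scaled library. The promoters of the general macrophage markers were acetylated under both conditions: 10 of 11 had a promoter region, at 30.5 to 123 CPM with DLL4 and 24.5 to 127 CPM untreated, while Csf1r had none listed. None of 10 hepatocyte genes had a promoter region, and the 1 stromal or endothelial gene that had one stood at 0.0713 CPM with DLL4 and 0.497 CPM untreated. Other lists were not empty: 11 of 17 neutrophil genes had a promoter region, at 1.69 to 46.3 CPM with DLL4 and 1.72 to 33.6 CPM untreated. So had 5 of 15 lymphocyte genes (up to 44.2 CPM with DLL4 and 43.2 CPM untreated), 5 of 12 erythroid or megakaryocyte genes (up to 44.6 CPM with DLL4 and 43.3 CPM untreated), 3 of 10 mast cell or basophil genes (up to 1.72 CPM with DLL4 and 1.43 CPM untreated) and 15 of 20 monocyte genes (up to 27.5 CPM with DLL4 and 39.2 CPM untreated). The promoters of 12 of 18 class II and dendritic cell genes had a median of 4.93 CPM with DLL4 and 1.84 CPM untreated. The part of these genes' cells in the results was not tested.

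The regions fell into 2 kinds by position. Of the 9392, 4285 (45.6%) overlapped a region of another listing class and so share tags with it. They had a median level of 5.92 CPM with DLL4 and 6.53 CPM untreated. The other 5107 overlapped no such region and had a median of 0.496 CPM with DLL4 and 0.671 CPM untreated. By library the medians of these were 0.558 and 0.475 CPM with DLL4 and 0.729 and 0.651 CPM untreated, so the libraries of the groups did not overlap in their medians. Overlap with another listing class held for 16.2% of the regions listed in both conditions and for 39.0% of those listed only with DLL4. Among the 9392, 3944 (42.0%) had a mean under 1 CPM in untreated BMDM, against 24.5% of the regions listed in both. At the other end, 1804 (19.2%) reached 10 CPM or more untreated, so the listing does not mean a low level. The peak caller's own score is not in the table, so no value just inside or outside its threshold can be given.

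**Figure D1:**
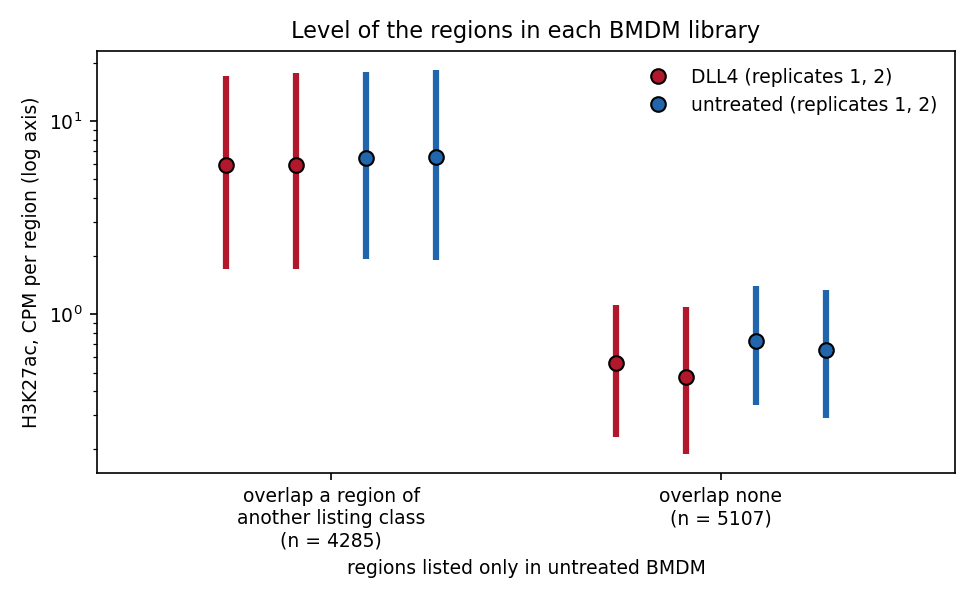
H3K27ac level in CPM (log axis) in each of the 4 BMDM libraries (DLL4 in red, untreated in blue) for regions listed only in untreated BMDM, split by overlap with a region of another listing class. Points are medians over regions and bars span the 25th to 75th percentile; the overlapping regions sit near 6 CPM in every library, the others under 1 CPM.

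The most acetylated of these regions illustrate the first kind. After one region on chr2:98665874-98667874, a block of satellite repeats that lies 1199220 bp from its annotated gene Lrrc4c and had 2829 and 1950 CPM with DLL4 and 4384 and 2568 CPM untreated, came regions at macrophage genes. That of Mpeg1, which encodes the pore-forming protein perforin-2, had 194 and 200 CPM with DLL4 and 172 and 168 CPM untreated. That of Gpnmb, a lysosomal glycoprotein of lipid-laden macrophages, had 169 and 169 CPM with DLL4 and 149 and 149 CPM untreated. Both were higher in each DLL4 library than in each untreated one, against their listing. The region of Brd2, a reader of acetylated histones, had 155 and 161 CPM with DLL4 and 152 and 161 CPM untreated, and its libraries overlapped. Regions of Dhrs3 (a retinal reductase), Cd180 (a Toll-like receptor homologue), Specc1, Mir21a (the miR-21 gene), Fyb (an adaptor of integrin signalling) and Tspan3 followed, and the log2 difference of DLL4 over untreated BMDM ranged from -0.30 at Tspan3 to 0.29 at Fyb among the 9 after the satellite block. All 10 overlapped a region of another listing class.

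Across the libraries, 7401 of the 9392 regions passed the filter on low counts and 1991 did not. A region is said to be called where edgeR's quasi-likelihood test, fitted on all 82089 tested regions, gave a Benjamini-Hochberg adjusted p under 0.05 and a difference of at least 2 fold. By this rule 410 were called lower with DLL4 (5.54%, against 2.64% of all tested regions) and 86 higher (1.16%, against 4.89%). Since the listing rests on the same libraries, nothing is read from these shares. The other 6905 were not called. The median log2 difference of the 7401 was -0.18, with quartiles of -0.62 and 0.16, against -0.02 over all tested regions, and 4691 (63.4%) lay below 0. In 2799 (37.8%) both DLL4 libraries were below both untreated ones, which held for 28.9% of all tested regions. In 1280 (17.3%) both DLL4 libraries were above, which held for 28.6% of all. The libraries overlapped in the other 3322. The regions that overlapped another listing class had a median log2 difference of -0.09 with 166 lower and 65 higher of 4090 tested, and the others had -0.37 with 244 lower and 21 higher of 3311. Of the regions listed only with DLL4, 694 of 9736 were called higher and 156 lower, with a median of 0.04.

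**Figure D2:**
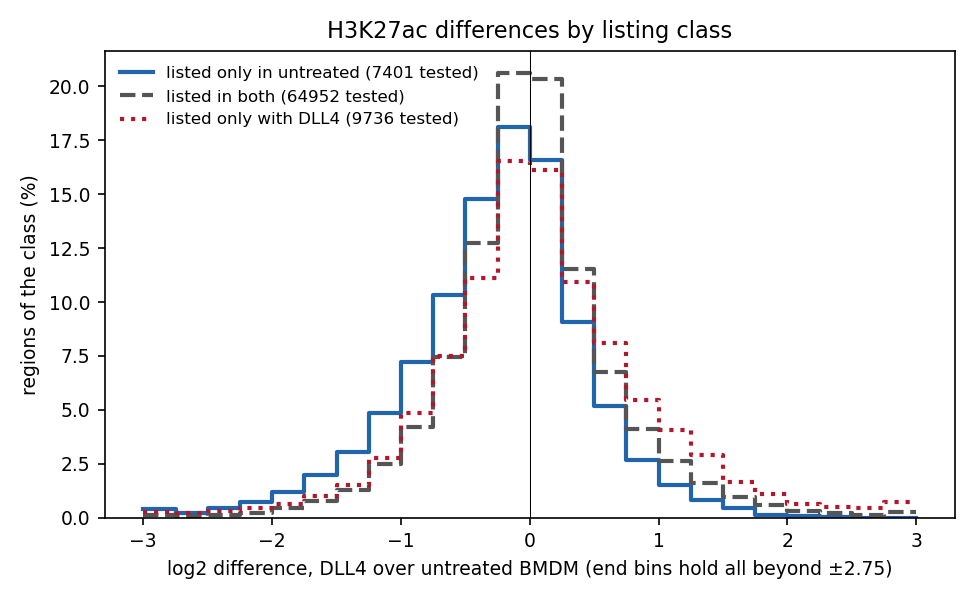
Share of tested regions of each listing class (vertical axis, %) by log2 difference of DLL4 over untreated BMDM in bins of 0.25 (horizontal axis). The class listed only in untreated BMDM is shifted to the left but covers 0, with a median of -0.18, and shares most of its range with the class listed in both conditions.

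Among regions with a mean level above the median of the listing, the most negative differences lay at genes of several functions. The region chr8:126538899-126540899, 53537 bp from the start of Irf2bp2 (a corepressor that binds IRF2), had 0.697 and 0.761 CPM with DLL4 and 3.74 and 4.74 CPM untreated, a log2 difference of -2.54 ± 0.40 (SE). An intronic region of Prg4, which encodes the secreted lubricant lubricin, at chr1:150458806-150460806 had 1.67 and 1.57 CPM with DLL4 and 8.89 and 7.27 CPM untreated (log2 -2.31 ± 0.28). An intronic region of Rnf141, a zinc finger protein with a RING domain, at chr7:110822823-110824823 had 4.46 and 3.99 CPM with DLL4 and 20.3 and 21.1 CPM untreated (log2 -2.29 ± 0.17). In all 3, both DLL4 libraries lay far below both untreated ones. The other 7 named by the same rule were regions of Xrra1 (-2.18 ± 0.33), Ccl7 (-2.18 ± 0.37), Klf4 (-2.01 ± 0.26), Gcfc2 (-1.998 ± 0.326), Cuedc1 (-1.997 ± 0.245), Epn2 (-1.99 ± 0.27) and Cdca8 (-1.94 ± 0.35). None of the 10 had overlapping groups, but they were picked by this same difference. Both DLL4 libraries lay below both untreated ones in 28.9% of all tested regions. An RBPJ peak was present in both BMDM lists at 8 of the 10, the exceptions being the regions of Irf2bp2, with a peak in neither list, and Klf4, with a peak in 1.

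**Figure D3:**
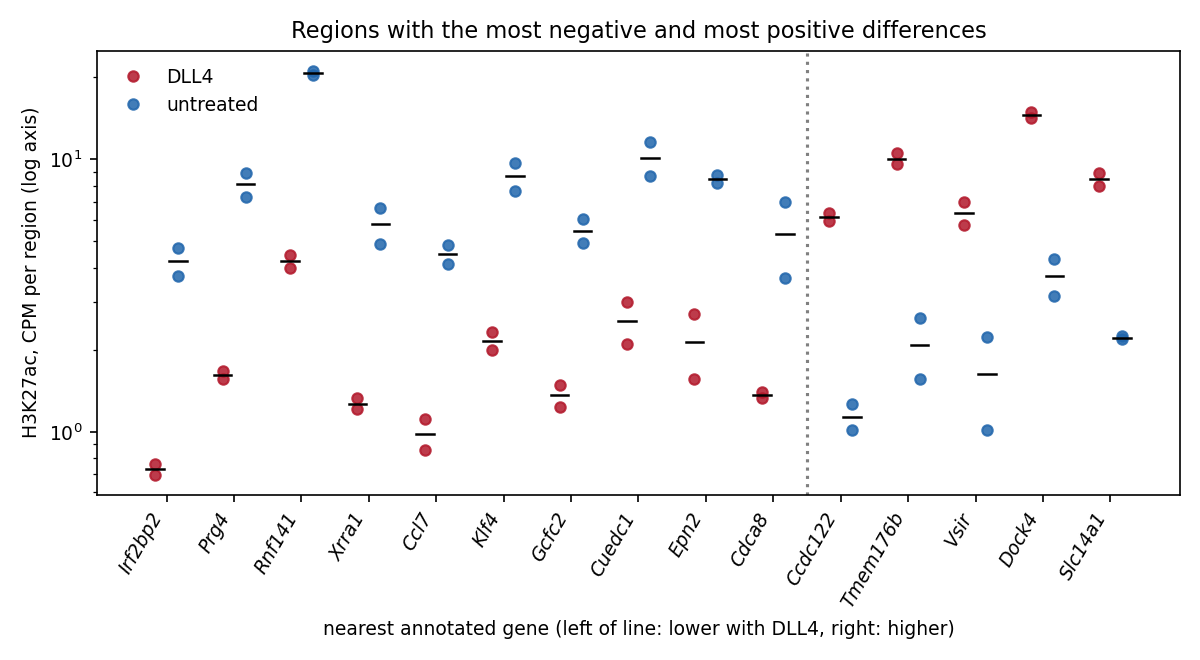
H3K27ac in CPM (log axis) of the 10 regions with the most negative and the 5 with the most positive difference, named by their annotated gene. Points are single libraries (DLL4 in red to the left, untreated in blue to the right) and bars their means. The regions were picked by these differences, and the 2 groups do not overlap in any of the 15 regions, from Irf2bp2 (0.697 and 0.761 against 3.74 and 4.74 CPM) to Slc14a1 (8.88 and 7.99 against 2.19 and 2.24 CPM).

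Several genes had more than one such region. The following were picked for their counts of called regions or for their neighbourhood, after the values were seen. Klf4 encodes a zinc finger factor of monocyte differentiation. Of its 6 regions listed only in untreated BMDM, 3 were called lower: that inside the gene at chr4:55530465-55532465 had 2.32 and 2.00 CPM with DLL4 and 7.63 and 9.70 CPM untreated, and those at -279862 and -285159 bp from its start had log2 differences of -1.69 ± 0.23 and -1.68 ± 0.30. Of the 43 regions annotated to Klf4 that were listed in both conditions, 15 were called lower and 0 higher. At the chemokine genes Ccl2 and Ccl7, ligands of the monocyte receptor CCR2, a region at chr11:82005016-82007016, at -29561 bp from the start of Ccl2, had 6.79 and 5.47 CPM with DLL4 and 17.8 and 21.3 CPM untreated (log2 -1.68 ± 0.17). A region 3680 bp downstream of the Ccl2 start had 0.558 and 0.618 CPM with DLL4 and 1.80 and 2.57 CPM untreated (log2 -1.89 ± 0.51). The one at -3686 bp from the start of Ccl7 had 1.12 and 0.856 CPM with DLL4 and 4.86 and 4.13 CPM untreated. No group overlapped the other at these 3 regions, while another, at -24749 bp from the start of Ccl2, was not called (log2 -1.54 ± 0.78).

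Foxp1, a forkhead repressor, had the most regions of this listing, 14 in 12 separate loci, of which 4 were called lower. The one at chr6:99437220-99439220, in an intron at -2875 bp from a start, had 6.83 and 7.04 CPM with DLL4 and 18.8 and 20.4 CPM untreated (log2 -1.50 ± 0.16). The pair at chr6:99334320-99336320 and chr6:99334633-99336633 overlaps and shares tags, so its log2 differences of -1.76 ± 0.24 and -1.74 ± 0.24 are 1 observation. Over the 12 tested regions of Foxp1 the log2 difference ranged from -1.76 to 0.68. Map3k20, a stress-activated kinase, had 5 of 6 regions called lower, together with 9 of its 15 regions listed in both. Of the 5, those at chr2:72371339-72373339 and chr2:72371581-72373581 overlap and share tags, and at chr2:72202806-72204806 the groups overlapped, with 0.279 and 0.808 CPM with DLL4 and 0.777 and 2.751 CPM untreated. At Lcmt1 all 3 regions, overlapping as 1 locus that holds the promoter printed above, were called lower, with log2 differences of -2.33 ± 0.78, -2.97 ± 0.56 and -2.11 ± 0.61, and the promoter region itself had 0.697 and 0.190 CPM with DLL4 and 2.62 and 1.30 CPM untreated. In all, the 9392 regions were annotated to 6286 of 18092 genes (34.7%), and 352 of these genes had such a region called lower. Over all listing classes, 1403 of the 18092 genes (7.75%) had a region called lower.

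The regions called higher with DLL4 despite their listing were mostly of the overlapping kind (65 of 86). An intronic region of Ccdc122 at chr14:77080198-77082198 had 6.37 and 5.94 CPM with DLL4 and 1.26 and 1.01 CPM untreated (log2 2.44 ± 0.32). The promoter region of Tmem176b, a cation channel gene of myeloid cells, at chr6:48839597-48841597 had 9.58 and 10.6 CPM with DLL4 and 2.62 and 1.56 CPM untreated (log2 2.29 ± 0.26). Vsir, the immune checkpoint protein VISTA, followed with 5.72 and 6.99 CPM with DLL4 and 2.24 and 1.01 CPM untreated, an intronic region of Dock4, a Rac activator, with 14.9 and 14.2 CPM with DLL4 and 3.16 and 4.31 CPM untreated, and the promoter of the urea transporter Slc14a1 with 8.88 and 7.99 CPM with DLL4 and 2.19 and 2.24 CPM untreated. The groups did not overlap in any of these 5, which were picked by that difference. The promoter region of Cxcr4, printed above, was the highest of this set among the listed genes, with 71.4 and 67.4 CPM with DLL4 and 31.1 and 28.0 CPM untreated (log2 1.24 ± 0.08). That of Cyp27a1 had 46.4 and 44.6 CPM with DLL4 and 17.2 and 20.7 CPM untreated (log2 1.26 ± 0.10), and that of Hfe had 47.1 and 45.2 CPM with DLL4 and 25.1 and 20.3 CPM untreated (log2 1.03 ± 0.10).

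Gene lists for pathways and cell types were then read through the regions annotated to their genes. As background, 2.64% of all 82089 tested regions were called lower and 4.89% higher. Of the 7401 tested regions of this listing, 5.54% were called lower and 1.16% higher. Of 23 measured Notch pathway and target genes, 10 had a region listed only in untreated BMDM. Those 22 regions, 21 of them tested, had a median log2 difference of -0.43, with 2 called lower and 1 higher. Both of the lower ones belong to Ccnd1, which encodes cyclin D1. Its promoter region at chr7:144939367-144941367 had 2.88 and 3.04 CPM with DLL4 and 5.98 and 9.59 CPM untreated (log2 -1.40 ± 0.26), and the region at -109927 bp from its start had 0.651 and 1.14 CPM with DLL4 and 2.62 and 2.82 CPM untreated (log2 -1.60 ± 0.44). The higher one lies in an intron of Maml3, a coactivator of Notch, with 3.58 and 3.04 CPM with DLL4 and 1.80 and 1.27 CPM untreated (log2 1.12 ± 0.38). Over all regions of the table, Hes1, Dtx4, Lfng and Maml3 had a region called higher and Ccnd1, Myc, Rbpj and Maml3 one called lower. Counted by region, 17 of 198 were called lower and 8 higher, with a median of -0.16. Of 20 cell cycle genes, 10 had regions of this listing with a median of -0.67, of which 3 were lower, at Ccnd1 (the 2 regions above) and Ccne2, and 0 higher. Among all tested regions of these genes, 14 of 151 were called lower and 1 higher.

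Of 21 TGF-beta and BMP genes, 11 had such regions, with a median of -0.48. Those of Bambi, a decoy receptor, and Ltbp1, which holds latent TGF-beta, were called lower, and 1 of Tgfbr2, the type II receptor, was called higher. Of 20 lipid and lysosome genes of macrophages, 12 had such regions, with a median of -0.21. The lower ones were those of Cd36, a scavenger receptor, at its promoter (2.18 and 2.19 CPM with DLL4 and 4.57 and 6.51 CPM untreated), Ctsk, the protease cathepsin K, and Spp1, osteopontin. Of 25 NF-kB response genes, 14 had such regions, with a median of -0.06, 1 lower at Il1b and 1 higher at Nfkb1. The region at -67831 bp from the start of Il1b had 0 tags in both DLL4 libraries and 12 and 18 tags untreated. Against a floor of 3 tags over both DLL4 libraries it was at least 8.83-fold lower with DLL4, and it was the only 1 of the 7401 tested regions with 0 DLL4 tags. It passed the filter on low counts only through its untreated tags, from libraries that also gave its listing, so the bound is a description only. Of 20 macrophage genes, 11 had such regions, with a median of -0.07, 1 lower at Mrc1, the mannose receptor, and 1 higher at C1qa, a complement subunit with 12.5 and 12.6 CPM with DLL4 and 5.35 and 4.45 CPM untreated. Over all tested regions of the table, of which 4.89% were called higher and 2.64% lower, the TGF-beta and BMP genes had 29 of 242 called higher and 11 lower. Their median was 0.17. The NF-kB response genes had 31 of 261 higher and 3 lower, with Il1b in both directions. The macrophage genes had 23 of 207 higher and 2 lower, and the lipid and lysosome genes 10 of 240 higher and 12 lower.

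Of 25 KC identity genes 8 had regions of this listing, with a median of -0.11, and of 20 LXR targets 11 had, with a median of -0.10; neither list had a region of this listing called in either direction, with 8 and 14 tested. Over all tested regions of the table, the KC identity genes had 59 of 175 called higher and 1 lower, and the LXR targets 19 of 160 higher and 1 lower. The shares among all 82089 tested regions were 4.89% higher and 2.64% lower. The 16 of 24 genes of the growth factor response had a median of -0.17 and 1 call, higher, at Dusp6, a phosphatase of ERK, whose region 170509 bp from its start had 23.2 and 23.1 CPM with DLL4 and 7.77 and 7.09 CPM untreated. The 12 of 24 migration and adhesion genes had a median of 0.07 and 2 higher calls, at Cxcr4 and the integrin gene Itgb5. The 9 of 19 monocyte genes had a median of -0.52 and the 9 of 17 neutrophil genes -0.28, with 0 calls. Interferon response genes (11 of 23) had a median of 0.25, class II and dendritic cell genes (7 of 17) 0.19, lymphocyte genes (3 of 12) 0.28, mast cell and basophil genes (3 of 6) 0.18 and stromal or endothelial genes (4 of 10) 0.11, with 0 calls each. In the same order, these medians rest on only 9, 9, 4, 4 and 3 tested regions. In the whole table, class II and dendritic cell genes had 39 of 122 tested regions called higher and 2 lower. Interferon response genes had 22 of 133 higher and 1 lower, and migration and adhesion genes 47 of 309 higher and 3 lower. Monocyte genes had 12 of 127 higher and 11 lower. The 3 of 5 hepatocyte genes had a median of -0.27 over 3 tested regions and 1 lower call, at Apob. The 2 of 8 erythroid or megakaryocyte genes had no tested region.

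By the deposited annotation, 4779 regions (50.9%) lay in introns, 3325 (35.4%) between genes and 640 (6.81%) at promoters. Promoters made up 19.0% of the regions listed in both conditions and 6.14% of those listed only with DLL4, so both classes listed in a single condition were poor in promoters. Over 3 kb from a start lay 7164 (76.3%), against 67.4% of those listed in both and 79.7% of those listed only with DLL4. Of the promoter regions tested, 11 of 558 were called lower and 6 higher, with a median log2 difference of -0.04, while of the intergenic ones 184 of 2451 were lower and 29 higher, with a median of -0.27. Introns stood between, with 205 lower and 46 higher of 3889 and a median of -0.18. The order was the same over all tested regions, with 0.770% of promoters, 2.60% of introns and 3.87% of intergenic regions called lower.

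The factor peaks come from other libraries than the listing. An RBPJ peak of BMDM, present in both replicate lists, overlapped 4993 of the 9392 regions (53.2%), against 76.9% of the regions listed in both conditions and 42.3% of those listed only with DLL4. A SMAD4 peak overlapped 1434 (15.3%), against 32.4% and 10.8%, and an LXR peak of GW3965-treated BMDM 1510 (16.1%), against 35.8% and 13.6%. All 3 factors met at 734 regions (7.82%), and 4143 (44.1%) had none of them. Peak shares were larger in bins of higher acetylation, so they were also read at like levels. Among regions with a mean of 3 to 10 CPM untreated, an RBPJ peak stood at 68.9%, against 85.6% of those listed in both and 65.2% of those listed only with DLL4. In the 1 to 3 CPM bin the RBPJ shares were 55.2%, 74.9% and 49.5% in the same order. Under 1 CPM they were 33.2%, 51.4% and 25.1%, and at 10 CPM or more they were 80.7%, 90.9% and 79.0%. The order of the 3 classes was thus the same in all 4 bins, with no test of the difference. The 4285 regions that overlap another listing class held an RBPJ peak in 66.5%, a SMAD4 peak in 29.2% and an LXR peak in 29.7%. The 5107 others held them in 42.0%, 3.54% and 4.68%. At like levels the RBPJ shares of the lone and of the overlapping regions were 56.2% and 53.5% between 1 and 3 CPM and 70.8% and 68.2% between 3 and 10 CPM. The order was reversed under 1 CPM, the bin of 65.5% of the lone regions, with 32.1% and 39.6%. It was also reversed at 10 CPM or more, with 77.6% and 80.9%. The SMAD4 shares were 4.23% and 8.66% between 1 and 3 CPM and 13.2% and 26.0% between 3 and 10 CPM. The BMDM lists held 78976 to 80480 peaks for RBPJ, 28593 to 37103 for SMAD4 and 30354 to 42233 for LXR.

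**Figure D4:**
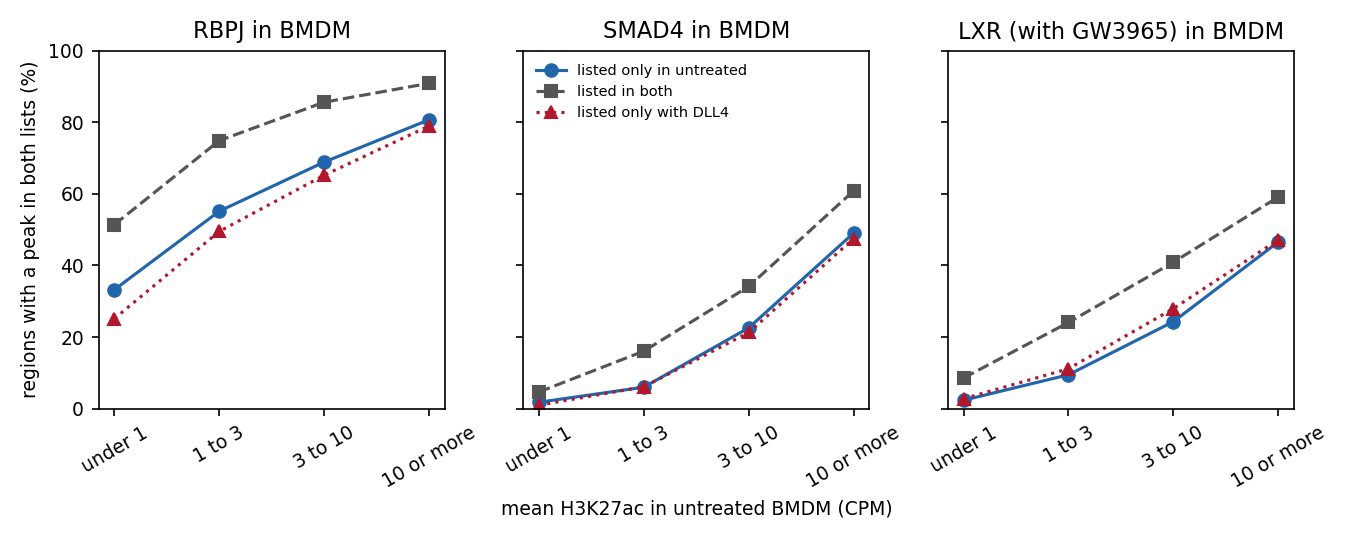
Share of regions (%) with a BMDM peak in both replicate lists, by mean H3K27ac level in untreated BMDM (4 bins, CPM), for RBPJ, SMAD4 and LXR. Regions listed only in untreated BMDM (blue) lie below those listed in both (grey) in every bin, with RBPJ at 68.9% against 85.6% between 3 and 10 CPM.

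The 410 regions called lower had an RBPJ peak in 72.7%, a SMAD4 peak in 14.6% and an LXR peak in 18.0%. The 86 called higher had them in 66.3%, 19.8% and 32.6%, and the 6905 not called in 59.3%, 19.3% and 20.1%. Read the other way, 298 of 4453 tested regions with an RBPJ peak were called lower (6.69%), against 112 of 2948 without one (3.80%). Over all tested regions of the table the shares were 2.89% with an RBPJ peak and 1.87% without, so the same order was present there. These shares pool regions of unlike level. Under 1 CPM untreated, an RBPJ peak stood in 47.4% of the 19 regions called lower and 39.3% of those not called. Between 1 and 3 CPM the shares were 60.6% and 54.6%, and between 3 and 10 CPM 79.6% and 67.5%. At 10 CPM or more they were 87.3% and 80.4%, and the difference was not tested. The median RBPJ peak had an authors' normalized tag value of 24.35 per 10 M in regions of this listing, against 35.05 in regions listed in both and 21.9 in those listed only with DLL4. The strongest stood in a region of Prcc at chr3:87884250-87886250 (256.7 and 254.5 tags per 10 M, 17.55 and 34.98 fold over input), followed by regions of Mir21a, Slc8b1, Ctsb (the lysosomal protease cathepsin B) and Plekhm2. The strongest SMAD4 peaks stood in regions of Ppcdc (893 and 964 tags per 10 M), Mcl1 (a survival factor of the BCL2 family), Cyth4, Egfl7 and Egr3. The strongest LXR peaks stood in regions of Prcc (1072 and 1063 tags per 10 M), Mmachc, Mir8098, Cyth4 and Timm21. None of these 13 regions was called between DLL4 and untreated BMDM. In KC or KC nuclei, RBPJ peaks overlapped 4.18% of the 9392, against 10.9% of the regions listed in both, SMAD4 peaks 15.7%, against 34.5%, and LXR peaks 18.6%, against 39.1%. Of the 410 called lower, 0.976% (4 regions) had an RBPJ peak, 4.15% a SMAD4 peak and 8.54% an LXR peak in KC. Of the 86 called higher, 5.81% (5 regions), 29.1% and 37.2% had them. The order was the same in regions listed in both, with 4.19%, 13.1% and 18.1% of those called lower and 15.6%, 45.4% and 52.4% of those called higher. Overlap with another listing class held for 40.5% of the 410 and 75.6% of the 86. KC SMAD4 peaks stood in 31.5% of the overlapping and 2.51% of the lone regions. Lists of unequal length are set side by side here. The KC RBPJ lists held 11277 to 13394 peaks, from libraries of 48.7 and 52.8 M tags. Each BMDM RBPJ list held 78976 to 80480 peaks, from smaller libraries of 16.6 and 17.5 M tags.

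The liver table, which was not used in the listing, shows whether these regions differ between cells in the animal. Of the 9392 regions, 4922 (52.4%) overlapped a region of that table by at least 1000 bp, against 83.4% of the regions listed in both conditions and 53.6% of those listed only with DLL4. Of the 4922, 4680 were tested. In KC over monocytes, 989 were called higher (21.1%, against 24.9% of all tested regions of the liver table) and 998 lower (21.3%, against 17.7%), with a median log2 difference of -0.21 against -0.06 over all. In RLM over monocytes, 362 were higher (7.74%, against 8.57%) and 451 lower (9.64%, against 9.14%), with a median of 0.06. In KC over RLM, 853 were higher (18.2%, against 22.3%) and 842 lower (18.0%, against 13.9%), with a median of -0.22. The last count fell to 417 without the second KC library, the deepest of the table. Each share lay near its background, and the 3 contrasts share libraries. Of the 4922, 1160 (23.6%) carried the monocyte list alone, 812 (16.5%) the KC list alone and 1273 (25.9%) all 3 lists, against 8.03%, 8.26% and 58.2% of the regions listed in both.

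Regions called lower with DLL4 were more often lower than higher in KC than in monocytes; the difference from the other regions was not tested. Of the 168 tested among the 410, 90 were lower in KC than in monocytes (53.6%) and 14 higher (8.33%), with a median log2 difference of -1.53. The 58 tested among the 86 called higher gave the opposite picture, 29 higher in KC and 10 lower (17.2%), with a median of 1.14. The 3855 not called had 904 higher (23.5%) and 809 lower (21.0%), with a median of -0.07. In RLM over monocytes 49 of the 168 were lower (29.2%) and 5 higher, with a median of -0.53, and in KC over RLM 66 were lower (39.3%) and 18 higher, with a median of -1.02. The same counts were read in regions of the other listing. Of the regions listed in both and called lower with DLL4, 510 of 1126 (45.3%) were lower in KC than in monocytes and 113 higher, and of those called higher 1446 of 2804 (51.6%) were higher in KC. The subset that overlapped no other listing class gave 34 lower of 66 (51.5%) and 4 higher.

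**Figure D5:**
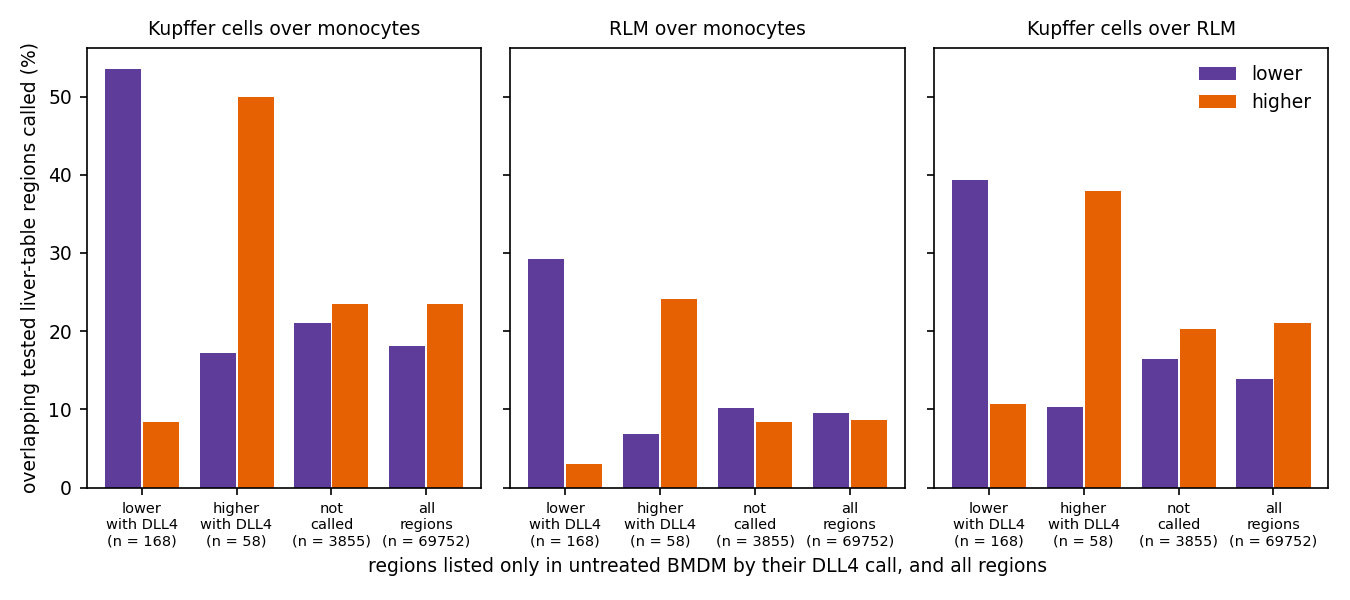
Share of overlapping liver-table regions (%) called lower (purple) or higher (orange) in Kupffer cells over monocytes, RLM over monocytes and Kupffer cells over RLM, for regions listed only in untreated BMDM grouped by their DLL4 call, and for all BMDM regions. Regions lower with DLL4 were lower in Kupffer cells than in monocytes in 53.6% and higher in 8.33%, those higher with DLL4 were lower in 10 and higher in 29 of 58.

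Single regions show both patterns. The intronic region of Rnf141 had 0.596 and 0.880 CPM in KC, 6.17 and 6.60 CPM in RLM and 14.1 and 12.6 CPM in monocytes, and was lower in KC than in monocytes (log2 -4.09 ± 0.40 (SE), edgeR adjusted p = 1.92e-14). That of Prg4 had 0.596 and 1.23 CPM in KC, 1.18 and 1.22 CPM in RLM and 12.6 and 10.5 CPM in monocytes (log2 -3.53 ± 0.41, edgeR adjusted p = 1.53e-11). The region inside Klf4 had 14.3 and 10.3 CPM in KC, 18.7 and 21.6 CPM in RLM and 24.4 and 33.9 CPM in monocytes (log2 -1.26 ± 0.25, edgeR adjusted p = 1.46e-05). Both KC libraries lay below both monocyte libraries in all 3, and at Prg4 the KC and RLM values overlapped. The Foxp1 pair was lower in KC by -5.51 ± 0.37 and -5.53 ± 0.37 on the log2 scale (edgeR adjusted p = 8.78e-22 and 3.11e-21). Of the regions higher with DLL4, those of Slc14a1 (log2 1.86 ± 0.24, edgeR adjusted p = 4.25e-10), Dock4 (1.45 ± 0.30, 2.51e-05), Tmem176b (1.39 ± 0.36, 0.000856) and Hfe (1.86 ± 0.22, 2.53e-11) were also higher in KC than in monocytes. Others went the other way. The region of Ccdc122, with the largest gain among those named, was lower in KC than in monocytes (log2 -1.36 ± 0.53, edgeR adjusted p = 0.0239), as was that of Dusp6 (log2 -1.57 ± 0.55, edgeR adjusted p = 0.0121). The Cxcr4 promoter was higher with DLL4 but lower in KC than in monocytes (log2 -2.53 ± 0.29, edgeR adjusted p = 1.02e-11), and the Ccnd1 promoter was lower with DLL4 but higher in KC (log2 4.77 ± 0.38, edgeR adjusted p = 9.49e-18), with 23.7 and 28.5 CPM in KC, 6.57 and 16.5 CPM in RLM and 0.992 and 0.908 CPM in monocytes. The region upstream of Ccl7 differed by less than 2 fold (log2 0.88 ± 0.32).

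The largest differences between KC and monocytes within the listing stood at regions that DLL4 left uncalled. A region at the 3′ end of Senp8, a protease of the ubiquitin-like protein NEDD8, had 58.2 and 86.3 CPM in KC, 2.10 and 1.73 CPM in RLM and 0.909 and 1.57 CPM in monocytes (log2 5.86 ± 0.32, edgeR adjusted p = 2.83e-26). In BMDM the same region had 2.51 and 0.903 CPM with DLL4 and 1.60 and 2.86 CPM untreated, and the groups overlapped. Regions of Snx24 (5.81 ± 0.40), Bcl2l1 (5.77 ± 0.37), Ifitm10 (5.70 ± 0.49) and Lgmn (5.65 ± 0.28) followed. Lgmn, the lysosomal protease legumain, was the only 1 of these 5 whose RLM level, at 69.9 and 56.8 CPM, came near that of KC, at 76.1 and 103 CPM, with 1.65 and 1.90 CPM in monocytes. The Bcl2l1 and Lgmn regions were uncalled in BMDM only by the 2 fold minimum. That of Bcl2l1 had 8.09 and 9.99 CPM with DLL4 and 17.5 and 17.9 CPM untreated (log2 -0.97 ± 0.15). That of Lgmn had 95.3 and 107 CPM with DLL4 and 67.4 and 70.1 CPM untreated (log2 0.56 ± 0.07). On the side of monocytes, the promoter region of Ly6c2, the gene of the monocyte antigen Ly6C, had 0.238 and 0 CPM in KC, 3.94 and 3.05 CPM in RLM and 9.51 and 6.44 CPM in monocytes (edgeR adjusted p = 1.29e-13), with too few KC tags to size the difference. In BMDM it had 1.67 and 1.47 CPM with DLL4 and 2.19 and 2.46 CPM untreated and was not called. The same held for a promoter region at chr1:71652289-71654289, named Apol7d by the deposited annotation alone. This region had 0.238 and 0.117 CPM in KC, 3.94 and 4.98 CPM in RLM and 24.5 and 33.7 CPM in monocytes (edgeR adjusted p = 5.08e-23). That of Xylt1, a xylosyltransferase of proteoglycan synthesis, had 0.715 and 0 CPM in KC, 9.20 and 13.8 CPM in RLM and 25.04 and 26.8 CPM in monocytes (edgeR adjusted p = 2.97e-18), and its fitted log2 difference was -11.24 without the first KC library and -5.15 without the second. Also lower in KC was one of Cbfa2t3, a transcriptional corepressor, with 0 and 0.0587 CPM in KC, 2.89 and 3.96 CPM in RLM and 3.22 and 6.03 CPM in monocytes (edgeR adjusted p = 5.79e-11). A region of Asap2 had 0 tags in both KC libraries and 25 and 25 tags in monocytes, at least 17.5-fold lower against a floor of 3 tags over both KC libraries.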

How the data were processed

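The authors deposited raw tag counts per 2000 bp region in 2 tables, 1 for BMDM and 1 for KC, RLM and monocytes, and a region's column of list names says which peak lists it merges. For RBPJ, SMAD4 and LXR the authors deposited HOMER peak lists holding a normalized tag value (a signal, tags per 10 M) and a fold over input (a ratio), called per library at a false discovery rate of 0.001 and at least 4 fold over input, per the file headers. Bowtie2, HOMER and mm10, the build of all coordinates, are named in the submitters' processing notes; versions are not given in the sources used here. Regions overlap, so a tag can count more than once.

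The regions and gene lists were chosen with earlier results of these data known. Counts were fitted over all regions of a table with edgeR 4.0.16 in R 4.3.3 (TMM, filterByExpr, robust quasi-likelihood test, Benjamini-Hochberg adjustment, 1 fit for the 6 libraries of the liver table); CPM use the TMM-scaled total of tags in tested regions, which before scaling was 20.1 to 27.1 M per library in BMDM and 7.35 to 19.5 M in the liver table. DESeq2 1.42.0 and other settings were alternatives. A liver-table region was paired by largest overlap, of at least 1000 bp, a peak by at least 1 bp, and summaries used Python 3.11.15 with pandas 2.3.3. The rule for named genes takes the 10 regions with the highest untreated level, the 10 most negative and 5 most positive differences above the median level, the 5 largest KC to monocyte differences in each direction, the 5 strongest peaks per factor and the listed genes, 1 region per gene, without predicted genes. Replicate numbers did not pair the samples. A tag count is limited by depth, and the floors cover counting error only. Each SE came from the quasi-likelihood fit and so includes the spread between the libraries of a group, whose origin is not labelled. Nearest-gene names do not show which gene a region acts on. Promoter windows from RefSeq (GRCm38.p6) were searched for 6 motifs, and no sequence from chromosome 18 is printed. Input libraries enter only through the fold over input.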

Additional observations from a re-analysis of the deposited data

How the results depend on the processing

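Counts of regions called lower and higher with DLL4 were 410 and 86, and 842 and 402 at the adjusted p alone. Library totals in place of TMM gave 468 and 76, DESeq2 339 and 83, no filter on low counts 396 and 95, and 1 region per locus (chosen after seeing the data) 383 and 84. With the replicate number as a block they were 423 and 89; same-numbered libraries were not correlated in their deviations (r = 0.018), so the numbers name libraries only. Leaving out each library in turn gave 304 to 401 lower, of which 256 to 282 were shared with the 410, and 95 to 114 higher. For KC over monocytes the block gave 966 lower and 992 higher and the single-library omissions 728 to 1017 lower and 832 to 1013 higher; for RLM over monocytes these omissions gave 400 to 484 lower and 294 to 371 higher, and for KC over RLM 417 to 897 lower and 665 to 898 higher. The lower count for KC over RLM, 842, is 417 without the second KC library; the cause was not tested. Library totals moved the median of all regions by -0.11 for KC over monocytes and by -0.14 for KC over RLM. Where a library left out leaves 1 in its group, that one is assumed to vary like the other groups.

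Shares of regions with a peak depend on the peak rule. A peak in either list gave 73.0% for RBPJ, 35.4% for SMAD4 and 34.9% for LXR, a fold over input of at least 8 gave 31.7%, 9.15% and 9.39%, and a peak centre within 500 bp gave 41.4%, 7.56% and 8.69%. Single lists gave 62.6% to 63.6% for RBPJ, 22.0% to 28.7% for SMAD4 and 22.0% to 29.0% for LXR. These alternatives by construction widen or narrow the rule. For 25 named differences, 15 between DLL4 and untreated BMDM and 10 between KC and monocytes, the direction and the call were the same in all 220 recomputed values. Depth limits the lone regions most, since 1796 of the 5107 did not pass the filter.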
